A study of Mus musculus with 50 samples.

Results

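The collagen cross-linking and folding enzymes are 10 genes of the 21954 measured: the lysyl oxidases Lox, Loxl1, Loxl2, Loxl3 and Loxl4, the lysyl hydroxylases Plod1 and Plod2, the alpha subunits P4ha1 and P4ha2 of prolyl 4-hydroxylase, and the collagen chaperone Serpinh1. They were chosen by name, from what they are known to do, but with earlier results of these data known. They are described in amputated digits over all time points and in cultured macrophages. All 10 passed the filter on low counts in every comparison below. The RNA-seq data come from 41 digits and 9 macrophage cultures of C57BL/6 mice with no transgene and no deletion. Terminal phalanges of young adult male mice were amputated, and RNA of the mixed cells around the wound bed was sequenced, 1 library per digit. The 29 non-regenerative digits carry amputation levels of 60% to 80% in their labels and come from 9 times, from 0 hours to day 21 (0, 3, 6, 12 or 24 hours, then day 3, 7, 14 or 21), with 3 digits at each and 5 on day 7. By their labels 17 of them lie above 67% and 12 at 67% or less, among them all 3 at 12 hours. The study's text places non-regeneration above that level, so the name is used here as the label gives it. The 12 intermediate digits carry levels of 41% to 55% and come from 4 of these times (0 and 24 hours, 14 and 21 days), with 3 digits at each. Macrophages grown from the bone marrow of female mice were left in basal medium (M0), treated with interferon gamma and lipopolysaccharide (M1) or treated with interleukin 4 (M2) for 24 hours, with 3 cultures of each. The sample labels give 24 hours for M1 and M2, but call M0 a baseline and give it no time. If M0 was collected earlier, treatment and time in culture cannot be told apart in comparisons with M0. Regenerative digits were not analysed here.

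Collagen chains are modified while they are made. Prolyl 4-hydroxylase hydroxylates prolines, which holds the collagen helix together at body temperature, and lysyl hydroxylases act on lysines that later form cross-links. The product of Serpinh1, also called HSP47, binds folded procollagen in the endoplasmic reticulum, and the secreted lysyl oxidases then oxidise lysines of collagen and elastin so that neighbouring molecules become joined. Fibroblasts and bone-forming cells are the main producers of fibrillar collagen in the digit, and scar tissue is rich in cross-linked collagen.

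Levels are given as normalized TPM, that is, TPM (a share of all transcripts, corrected for gene length) that the authors scaled between libraries. Tests used the expected counts. A gene was called where its edgeR adjusted p was under 0.05 and its mean normalized count plus 1 changed by more than 2-fold, and the share of all tested genes called in the same comparison is given as the background. Digits of 1 group and time are numbered in the order of their labelled amputation level, and the numbers only name them. Between 1468749 and 13011782 expected counts per digit and between 15683424 and 27904773 per macrophage culture were assigned to genes. Among the digits, replicate 2 at 14 days stood apart with normalized TPM that summed to 3362791, and replicate 2 at 7 days with 10096 genes above 0, the fewest of any digit. Both are non-regenerative, and calls over time that rest on them are given with and without them. The differences from intermediate digits, the median changes and the values of Spearman's rho are given with all digits only. Of the 41 digits, 24 carry dates of an earlier period and 17 of a later one, and 10 share a mark and a date with a digit of another group. Markers of the macrophage states were highest in the state of their label. Nos2 stood between 2640 and 2760 normalized TPM in M1 and under 7 elsewhere, and Retnla between 1300 and 1620 in M2 and under 1 elsewhere. Nos2, Il12b and Cd86 summed to 33.9 to 37.3 in M0, 3060 to 3210 in M1 and 93.1 to 113 in M2. Arg1, Retnla and Chil3 summed to 24.3 to 26.5 in M0, 394 to 426 in M1 and 2140 to 2640 in M2. This second sum was thus higher in M1 than in M0 as well.

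Over the 9 time points of the non-regenerative digits, 8 of the 10 genes changed, by the edgeR test of any change over time across the 29 digits. The background was 7.62% of 14434 genes. The adjusted p was 7.57e-05 for Loxl1, 0.000591 for Serpinh1, 0.00128 for P4ha2, 0.00679 for Plod1, 0.00852 for Loxl2, 0.0111 for Lox, 0.0317 for Plod2 and 0.0455 for Loxl3. It was 0.508 for P4ha1 and 1 for Loxl4, the least abundant of the 10. Leaving out single digits gave between 6 and 8 genes, and Lox, Loxl1, Loxl2, P4ha2 and Serpinh1 were past the threshold in each of these 29 fits. Plod1 was lost without replicate 2 at 14 days, and without both digits that stood apart the count was 9, with P4ha1 added at an edgeR adjusted p of 0.0365. The plot of levels by digit shows the spread within each time. The wound bed is a mixture, and fewer cells of a type cannot be told apart from less RNA per cell.

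**Figure D1:**
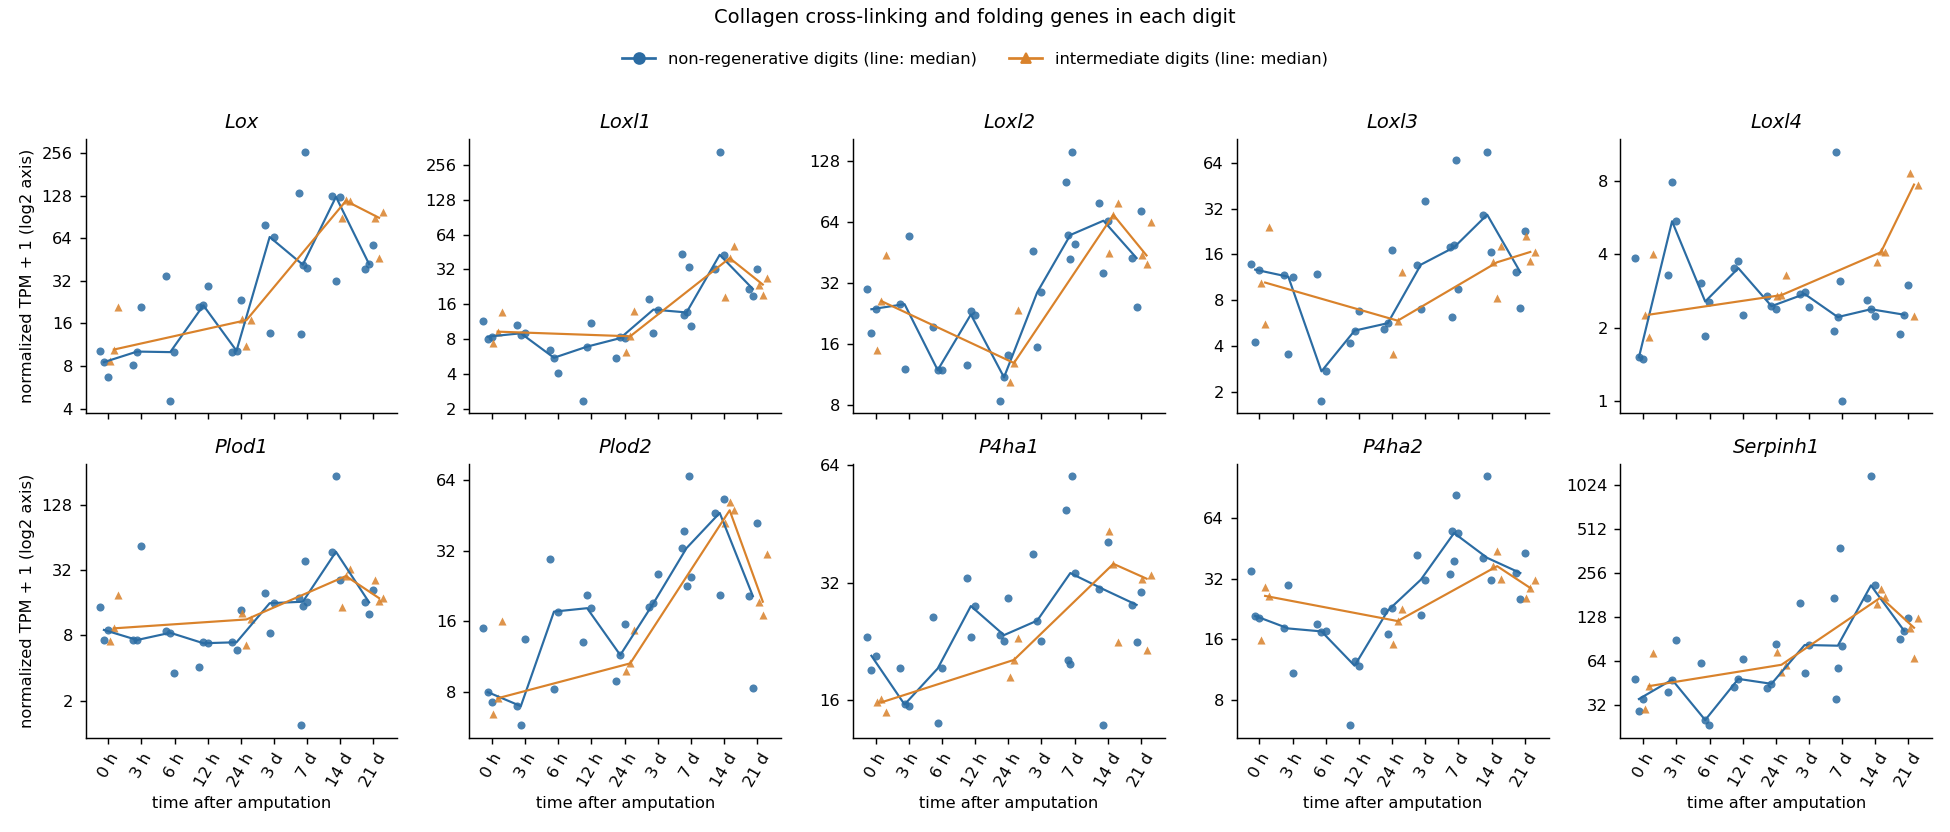
Level of each of the 10 genes (normalized TPM + 1, log2 axis) in every digit against time after amputation; blue circles are non-regenerative and orange triangles intermediate digits, and lines join the group medians. Lox lies between 5.65 and 9.14 in the non-regenerative digits at 0 hours and between 37.8 and 56.3 at 21 days, and Loxl4 stays near the bottom of the scale in most digits.

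Lox, the founding lysyl oxidase, was called at the earliest time of the 10 genes and rose by the largest factor. In non-regenerative digits it stood at 9.14, 7.52 and 5.65 normalized TPM at 0 hours, at 20, 20.5 and 28.4 at 12 hours and at 37.8, 41.1 and 56.3 at 21 days. All digits of the later times lay above all 3 digits at 0 hours. Its log2 fold change against 0 hours was 1.67 (SE 0.239, edgeR adjusted p = 0.00407) at 12 hours, a 3.18-fold rise, and 2.58 (SE 0.255, adjusted p = 0.0132) at 21 days, a 5.98-fold rise. All 3 digits at 12 hours carry dates of the earlier period, against 1 of the 3 at 0 hours, and with the period as a term in a fit of all digits the log2 fold change at 12 hours was 0.82 (edgeR adjusted p = 0.657). That fit gave 2.99 (adjusted p = 0.0308) at 21 days, and the call at 21 days was lost when replicate 2 or replicate 3 at 0 hours was left out.

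Between those times the digits varied widely. Lox stood at 79.3, 12.6 and 64.5 at 3 days, at 133, 12.5, 40.7, 262 and 38.4 at 7 days and at 127, 30.8 and 125 at 14 days, each digit above the highest at 0 hours. The lowest 7-day and 14-day digits were the 2 that stood apart. The log2 fold changes of 2.79 at 3 days (edgeR adjusted p = 0.088), 3.71 at 7 days (adjusted p = 0.387) and 3.58 at 14 days (adjusted p = 0.224) were not called in the tests of each time against 0 hours. In 1 fit of the 39 digits without the 2 that stood apart, they were 2.81 (edgeR adjusted p = 0.0394), 3.99 (adjusted p = 0.00119) and 4.03 (adjusted p = 0.00139), the last a 16.3-fold rise. That fit made none of the calls of the separate tests in non-regenerative digits: Lox had an edgeR adjusted p of 0.0897 at 12 hours and 0.0892 at 21 days, Loxl2 of 0.218 at 24 hours and Serpinh1 of 0.0892 at 21 days. Without replicate 2 at 3 days, Lox and Serpinh1 were called at that time, and without replicate 2 at 7 days Lox was called there. At 3, 6 and 24 hours Lox was not called, and its digits ran from 7.18 to 19.9, from 3.53 to 33.8 and from 8.97 to 22.3.

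Loxl1 is known for its action on elastin, and Loxl2 for its action on the collagen of basement membranes. Loxl1 (chr9:58287738-58313186, minus strand, GRCm38) stood at 10.4, 6.94 and 7.4 at 0 hours, at 31.2, 332 and 41.8 at 14 days and at 20.7, 17.8 and 31.2 at 21 days. The middle 14-day value is that of the digit whose sum was high, and with every library rescaled to the common sum of plain TPM the 3 digits held 37.3, 98.8 and 44.5. The log2 fold change of Loxl1 at 14 days was 3.53 and not called, and it was 2.10 and called in the fit without the 2 digits. Loxl2 (chr14:69609068-69695834, plus strand) was lower at 24 hours, from 28.9, 17.2 and 22.8 at 0 hours to 7.38, 9.96 and 13.1, where no digit reached the lowest of 0 hours. This fall of 1.04 on the log2 scale (SE 0.27, edgeR adjusted p = 0.0333) was lost when replicate 1 or 3 at 0 hours or replicate 1 or 2 at 24 hours was left out. At 7 days Loxl2 stood at 99.9, 54.4, 41, 142 and 49.2, each above the 0-hour digits, and its log2 fold change was called only in the fit without the 2 digits, at 1.91.

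Loxl3 and Loxl4 complete the family of lysyl oxidases. Loxl3 (chr6:83034173-83052562, plus strand) overlaps Htra2 on the other strand, and whether the counting used strand is not given in the sources used here, so reads of the overlap cannot be assigned. Its digits ran from 3.22 to 12.8 at 0 hours and from 5.22 to 65.5 at 7 days, and it was called at no time against 0 hours. Loxl4 (chr19:42593982-42612813, minus strand) stood at 2.87, 0.509 and 0.492 at 0 hours, from 20, 11 and 6 expected counts. It was called at no time in the non-regenerative digits and held 0 counts in replicate 5 at 7 days, where up to 3 of 4667156 counts would not have been detectable. A limit of this kind covers counting error only.

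The make-up of the lysyl oxidase family therefore differed between times. Loxl2 held 45.1% to 48.6% of the summed normalized TPM of the 5 genes in the non-regenerative digits at 0 hours, and Lox 11.7% to 21.2%. Lox held 37.1% to 51.7% at 12 hours and 30.8% to 45.8% at 21 days, without overlap with 0 hours. At 3 hours (13.3% to 24.4%), 6 hours (17.2% to 47.8%) and 7 days (13.3% to 51.9%) the Lox share did overlap with 0 hours. Loxl2 held 28.1% to 58.2% at 7 days. At 14 days the Lox share was 47.7% and 50.3% in 2 digits and 6.49% in the digit with the high sum, where Loxl1 held 70.1%. These shares are given as a description, with no test.

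**Figure D2:**
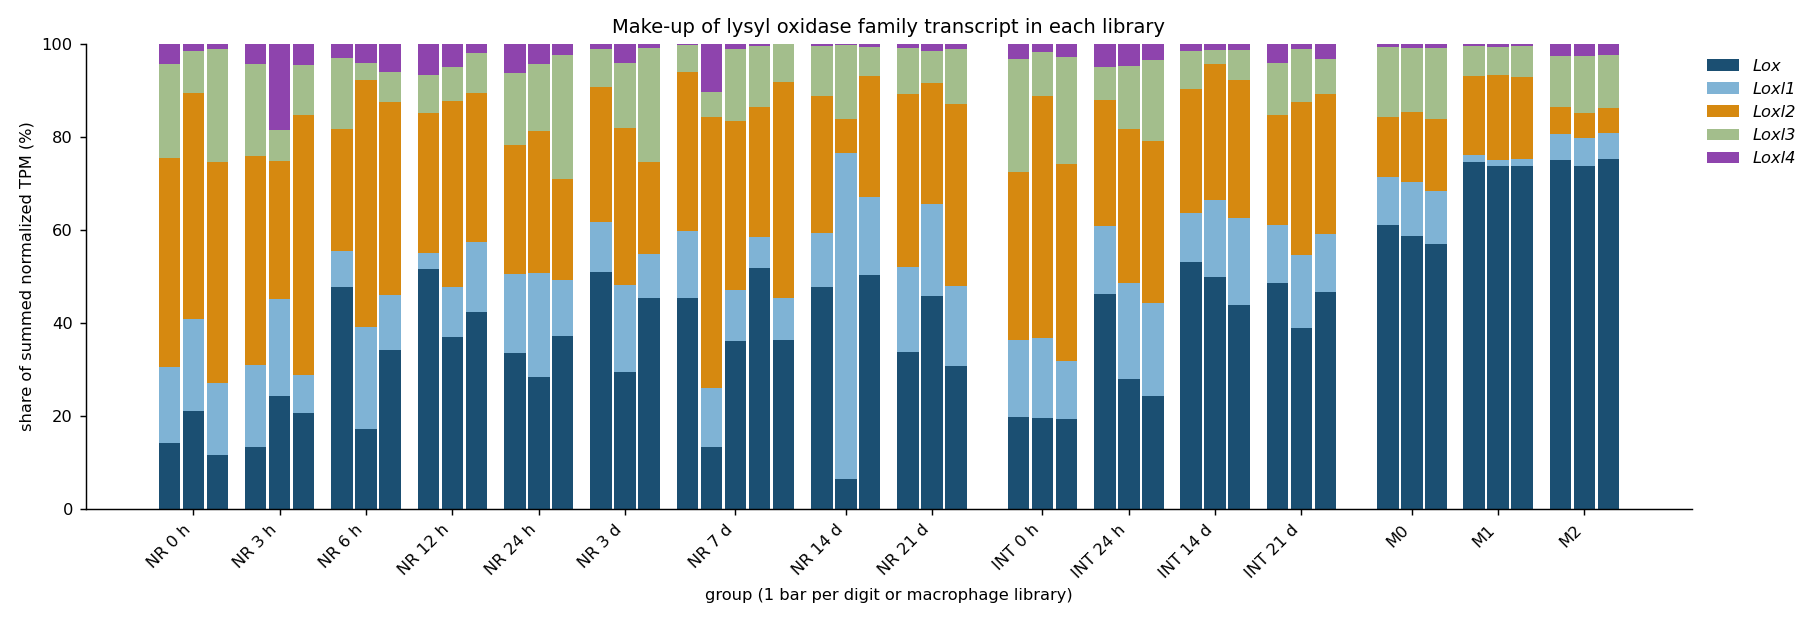
Share (percent) of each of the 5 lysyl oxidases in their summed normalized TPM, with 1 stacked bar per digit or macrophage culture (NR non-regenerative, INT intermediate). In the non-regenerative digits at 0 hours Loxl2 holds 45.1% to 48.6%, and at 12 hours Lox holds 37.1% to 51.7%, while Lox holds 57% to 75.3% in every macrophage culture.

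Of the lysyl hydroxylases, Plod1 (chr4:147909753-147936767, minus strand) acts within the helix of collagen and Plod2 (chr9:92542223-92608428, plus strand) on the ends of the chains, where cross-links of the stable kind found in bone and scar begin. Plod1 stood at 13.5, 6.29 and 7.96 at 0 hours, at 46, 233 and 24.9 at 14 days and at 15.1, 11.5 and 19.8 at 21 days. Plod2 stood at 14, 7 and 6.27 at 0 hours, at 31.8, 37.9, 21.6, 65.4 and 23.8 at 7 days and at 45.3, 19.8 and 51.9 at 14 days. All digits of the last 2 times lay above those of 0 hours for Plod2, and neither gene was called at any single time. In the fit of 39 digits Plod2 was called at 7 days, with a log2 fold change of 2.03, and at 14 days with 2.40. Replicate 2 at 7 days held 0.187 normalized TPM of Plod1, from 1.99 expected counts, beside 13.9 to 37.8 in the other 4 digits. Plod2 held 44.1% to 52.7% of the pair at 0 hours and 75% to 79.8% at 12 hours.

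Of the prolyl 4-hydroxylase subunits, P4ha1 (chr10:59323296-59373304, plus strand) is the widely expressed form and P4ha2 (chr11:54100095-54131665, plus strand) is known from cartilage and bone. P4ha1 stood at 22.3, 18.1 and 19.8 at 0 hours, at 31.9, 22.3 and 26.9 at 12 hours and at 27.1, 21.6 and 29.4 at 21 days, and it was called at no single time. P4ha2 stood at 33.8, 19.9 and 19.4 at 0 hours, at 4.96, 11.4 and 10.8 at 12 hours and at 32.9, 54.1, 38.1, 82.8 and 53.1 at 7 days. Its 12-hour digits all lay below the 0-hour digits, and the fall of 1.06 on the log2 scale was called in the fit of 39 digits (edgeR adjusted p = 0.0363), in which Lox was not called at that time, and when replicate 2 at 12 hours was left out. The P4ha1 share of the pair ran from 39.8% to 50.6% at 0 hours and from 66.1% to 86.5% at 12 hours.

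Serpinh1 (chr7:99345376-99353239, minus strand) was the most abundant of the 10 in the non-regenerative digits at 0 hours, at 47.3, 28.3 and 34.2. It stood at 172, 34, 56.7, 380 and 80.4 at 7 days, at 172, 1170 and 209 at 14 days and at 89.7, 102 and 124 at 21 days. All 14-day and 21-day digits lay above all 0-hour digits, and the 14-day digits held 206, 348 and 223 on that rescaled level. The rise at 21 days was 1.62 on the log2 scale (SE 0.203, edgeR adjusted p = 0.0247). It was lost when replicate 2 or 3 at 0 hours or replicate 1 or 3 at 21 days was left out. The log2 fold change of 3.49 at 14 days was not called, and without the digit whose sum was high Serpinh1, Lox, Loxl1, Loxl2 and Plod2 were called at that time.

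Set against the background, single time points gave few calls. None of the 10 was called by edgeR at 3 hours, where the background was 0% of 12562 genes, after 6 hours (4.85%), on day 3 (0.723%), on day 7 (0.0537%) or on day 14 (0% of 13567 genes). At an unadjusted p under 0.05 the number of members was 0, 3, 4, 6 and 6 at these times, where the share of all genes was 10.8%, 25.6%, 11.1%, 4.34% and 7.7%. DESeq2 called 0, 0, 3, 2 and 4 members, and the share of all genes it called is not given here. At 12 hours, where 11.4% of genes were called, Lox was the 1 gene of 10. At 24 hours it was Loxl2, with a background of 10.7%, so both counts are near the background. At 21 days it was Lox and Serpinh1, with a background of 0.452%. All these comparisons share the 3 digits at 0 hours, and all 21-day digits carry dates of the later period. The median log2 fold change of the 10 genes was 0.03, -0.14, 0.10 and 0.02 after 3, 6, 12 and 24 hours, and then 0.75, 1.48, 1.99 and 1.0 on days 3, 7, 14 and 21, when all 10 values were positive. The median of all genes tested stayed within 0.09 of 0.

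**Figure D3:**
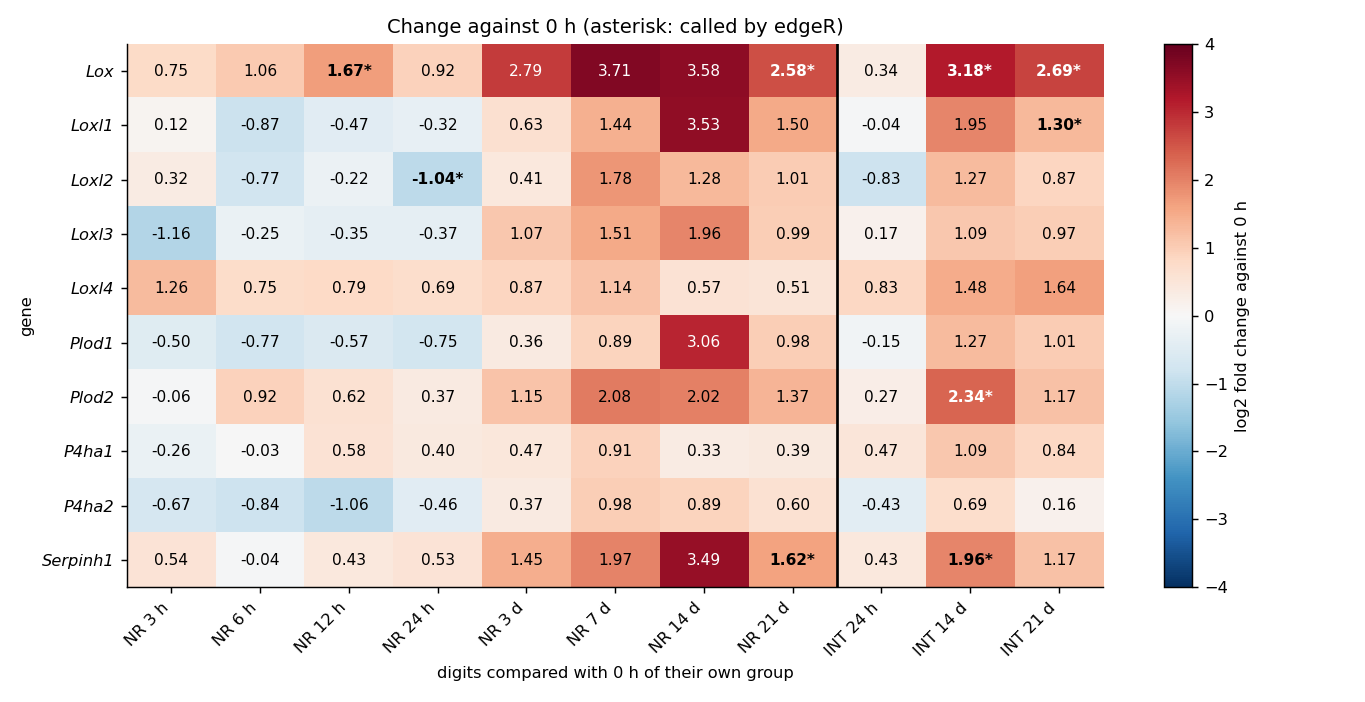
Log2 fold change of each gene against 0 hours of the same group (colour and printed value), for the 8 later times of the non-regenerative and the 3 of the intermediate digits; an asterisk marks a value called by edgeR. Lox reads 1.67 at 12 hours and 2.58 at 21 days in non-regenerative digits and 3.18 at 14 days in intermediate digits.

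At 7 days the digits split along the date periods. For 6 of the 10 genes, Lox, Loxl1, Loxl2, Plod1, P4ha1 and Serpinh1, both digits of the earlier period lay above all 3 of the later one, and for none was the order the other way. Lox held 133 and 262 in the earlier and 12.5 to 40.7 in the later digits. Of 13339 genes, 21.6% were likewise higher in the earlier pair. The fibroblast markers moved with the members, at summed levels of 852 and 1600 normalized TPM in the earlier and 318 to 413 in the later digits. The macrophage markers moved likewise, at 652 and 1140 against 158 to 197, and the osteoblast markers the other way, at 8.65 and 140 against 330 to 441, as did the keratinocyte markers, at 26400 and 35400 against 35500 to 55800. The part of these cells in the result was not tested.

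In intermediate digits Lox was called higher at 14 and 21 days, Plod2 and Serpinh1 at 14 days and Loxl1 at 21 days. Lox stood at 7.69, 9.46 and 19.8 at 0 hours, at 87.8, 118 and 117 at 14 days and at 88.6, 45.5 and 98 at 21 days. All late digits lay above all 3 at 0 hours. Its log2 fold change was 3.18 at 14 days (SE 0.334, edgeR adjusted p = 0.00494), a 9.04-fold rise, and 2.69 at 21 days (SE 0.374, adjusted p = 0.00785), a 6.48-fold rise. Plod2 stood at 5.43, 6.53 and 15.1 at 0 hours and at 40.8, 50.7 and 46.5 at 14 days, a 5.06-fold rise (log2 2.34, SE 0.349, edgeR adjusted p = 0.0151). Serpinh1 stood at 28.9, 42.1 and 71.4 at 0 hours and at 155, 197 and 173 at 14 days, a 3.89-fold rise (log2 1.96, SE 0.245, edgeR adjusted p = 0.00807). For both genes the groups did not overlap. Loxl1 stood at 6.38, 8.28 and 12.6 at 0 hours and at 22.7, 18.4 and 26.1 at 21 days, a 2.46-fold rise (log2 1.30, SE 0.258, edgeR adjusted p = 0.0399), also without overlap.

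Lox, Plod2 and Serpinh1 made 3 of 10 members called at 14 days, where the background was 1.68% of 13334 genes, and Lox and Loxl1 made 2 at 21 days, where it was 1.39%. At 24 hours edgeR and DESeq2 called 0 members, and the edgeR background was 0.0152%. At an unadjusted p under 0.05 there was 1 member, where the share of all genes was 15.4%. The median log2 fold change of the 10 genes was 0.22, 1.37 and 1.09 at 24 hours, 14 days and 21 days, and all 10 were positive at the last 2 times. None was called at either late time without replicate 2 at 0 hours, and without replicate 3 at 0 hours Lox, Loxl1, Loxl2, Plod2 and Serpinh1 were called at 21 days. The call of Loxl1 was kept in 1 of 6 fits that left out a digit, and that of Plod2 was lost in 3 of 6 (without replicate 2 at 0 hours, replicate 2 or replicate 3 at 14 days). With the date period as a term the log2 fold change of Lox was 3.27 (edgeR adjusted p = 0.00946) at 14 days and 2.32 (adjusted p = 0.32) at 21 days.

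Intermediate and non-regenerative digits were compared directly at 4 times, and edgeR called none of the 10 genes at 0 hours, 24 hours, 14 days or 21 days. DESeq2 called 0 as well. At an unadjusted p under 0.05 there were 1, 1, 0 and 2 members, where the shares of all genes were 3.64%, 11.3%, 2.0% and 14%. The edgeR background was 0% of 13500 genes at 0 hours, 0% of 13024 at 24 hours, 0% of 13421 at 14 days and 0.648% of 13736 at 21 days. At 21 days the non-regenerative digits are all of the later and the intermediate digits all of the earlier period, so group and period cannot be told apart. The intervals were wide at 14 days: the log2 difference, intermediate minus non-regenerative, was 0.23 for Lox (95% interval -1.30 to 1.77), -1.28 for Serpinh1 (-2.89 to 0.33) and -1.75 for Plod1 (-3.62 to 0.12). The non-regenerative side includes the digit with the high sum. It held 1170 normalized TPM of Serpinh1, beside 172 and 209 in the others, and 233 of Plod1, beside 46 and 24.9. The intervals were narrower at 21 days, at 0.70 for Lox (0.06 to 1.35), 0.02 for P4ha1 (-0.52 to 0.56) and -0.20 for Serpinh1 (-0.71 to 0.31). The widest gap at 21 days was that of Loxl4, whose 3 intermediate digits held 7.67, 1.23 and 6.74 normalized TPM and whose non-regenerative digits held 0.885, 1.26 and 1.98. The groups overlapped, and the difference was 1.49 (95% interval 0.26 to 2.71).

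The test of whether the time course itself differed between the groups called 0 of 14768 genes, a background of 0%, and so none of the 10. The smallest edgeR adjusted p among them was 0.66, for Plod1 and Serpinh1. Plod1 was the 1 member with an unadjusted p under 0.05, where the share of all genes was 7.1%. DESeq2 called 0 members. A rise called in 1 group and not in the other is therefore not shown to differ.

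**Figure D4:**
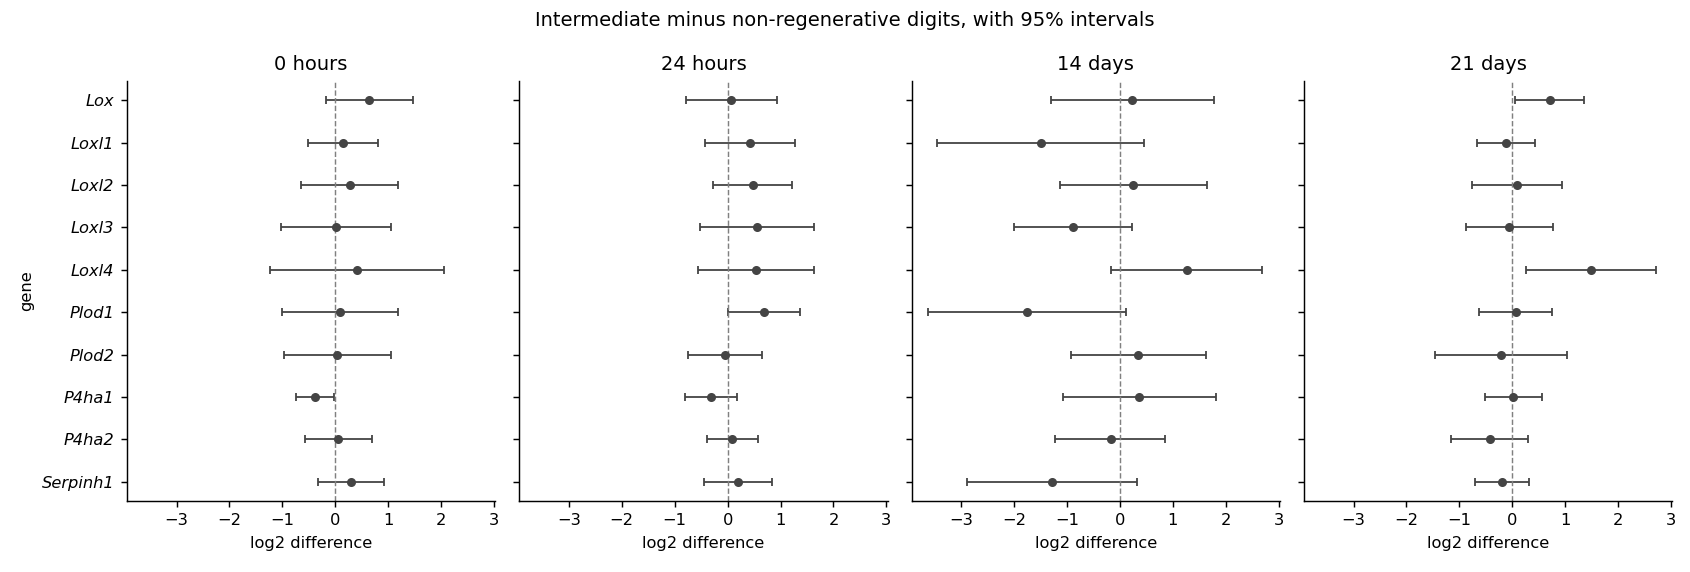
Log2 difference, intermediate minus non-regenerative digits, of each gene at 0 hours, 24 hours, 14 days and 21 days (points) with 95% intervals from edgeR (bars); 0 means equal levels. The interval of Lox at 14 days runs from -1.30 to 1.77, and no gene was called at any of the 4 times.

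The other genes of collagen production were counted from lists drawn up by function. Of 18 other genes of the biosynthesis machinery, 2 rose and 1 fell at 12 hours in the non-regenerative digits, 3 rose and 1 fell at 24 hours, and P4ha3 alone was higher at 21 days. In the intermediate digits 4 rose at 14 days, namely P4ha3, P3h1, Fkbp10 and Bmp1, and 3 rose at 21 days. The 6 substrates are fibrillar collagens and elastin, of which 3 fell at 12 hours, 5 fell at 24 hours and 5 rose at 21 days, with Col1a1 at a log2 fold change of 3.17. In the intermediate digits 4 substrates rose at 14 days, with Col1a1 at 4.07, and 5 at 21 days. Of 11 hypoxia genes, 2 rose at 6 hours (Adm and Ndrg1), 2 at 12 hours and 2 at 24 hours (Slc2a1 and Adm), and 1 at 3 days (Slc2a1). Over all non-regenerative times, 8 of the 18 machinery genes, 6 of the 6 substrates and 1 of the 11 hypoxia genes changed, beside 8 of the 10 members and 7.62% of all genes. The shares of all genes called in these digits were 4.85% at 6 hours, 11.4% at 12 hours and 10.7% at 24 hours. They were 0.723% at 3 days and 0.452% at 21 days. In the intermediate digits they were 1.68% at 14 days and 1.39% at 21 days. The hypoxia counts at 12 and 24 hours and over all times are near the background, and those at 6 hours and 3 days lie above it.

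The summed level of the 10 enzymes can be set against that of their 6 substrates, per length and within a library. In non-regenerative digits the enzymes came to 7.28%, 7.8% and 7.85% of the substrates at 0 hours, to 18.3% to 29.4% at 24 hours and to 2.52% to 3.26% at 21 days. The substrates' sum ran from 1470 to 2490 normalized TPM at 0 hours, from 426 to 1200 at 24 hours and from 7860 to 17100 at 21 days. In intermediate digits the share was 6.36% to 9% at 0 hours, 10.2% to 12.3% at 24 hours and 2.14% to 2.84% at 21 days. The shares at 24 hours did not overlap with those of the other 2 times in either group, and they are a description with no test.

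Markers of other cell types moved over the same times. The summed fibroblast markers (Pdgfra, Dcn, Lum, Thy1 and Col6a3) ran from 341 to 836 normalized TPM in non-regenerative digits at 0 hours and from 1240 to 1720 at 14 days, and from 496 to 1130 and 767 to 1660 in intermediate digits. The summed neutrophil markers ran from 20.1 to 23.9 at 0 hours and from 1130 to 1300 at 24 hours in non-regenerative digits. The summed osteoblast markers ran from 51.6 to 136 at 0 hours and from 643 to 1670 at 14 days in intermediate digits. Over the 41 digits, which share time points and 0-hour groups, Spearman's rho of a member with the fibroblast sum ran from 0.25 to 0.8 with a median of 0.75, with the macrophage sum from 0.19 to 0.79 with a median of 0.74, with the osteoblast sum from 0.34 to 0.7, with the chondrocyte sum from 0.1 to 0.7, with the keratinocyte sum from -0.58 to -0.13, with the neutrophil sum from -0.27 to 0.21 and with the sum of the hypoxia genes from -0.44 to -0.1. Their part in the members' changes was not tested.

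The 3 genes whose levels over the 41 digits were most like those of each member are given by Spearman's rho among 13691 genes with a mean of at least 1 normalized TPM, as a description. For Lox they were Col6a3 (0.949), Serpinh1 (0.9) and Nid1 (0.897). For Loxl1 they were Col3a1 (0.928), Col5a1 (0.912) and Mmp2 (0.898), and for Loxl2 Fbn1 (0.925), Vim (0.924) and Fn1 (0.923). Serpinh1 was nearest to Emilin1 (0.923), Aebp1 (0.916) and Kdelr3 (0.91), Plod1 to Mxra8 (0.894), Fbln5 (0.888) and Col5a1 (0.872), and Plod2 to Dclk1 (0.869), Ctsk (0.865) and P4ha3 (0.853). P4ha2 was nearest to Csrp2 (0.877), Rftn2 (0.836) and Mxra7 (0.834), Loxl3 to C1ra (0.823), Col15a1 (0.805) and Mxra8 (0.801), and P4ha1 to Nedd9 (0.755), P4ha3 (0.74) and Tnc (0.729). Loxl4 had none above 0.586 (Lgals8), followed by Cers2 (0.574) and Focad (0.571). Among the 45 pairs of members rho ran from 0.047 to 0.9 with a median of 0.641.

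In macrophages the 10 genes split into sets with different responses to the 2 treatments. The hydroxylases P4ha1, P4ha2 and Plod2 were highest in M1, Loxl1, Loxl3, Loxl4, Serpinh1 and Lox itself were highest in M2, and the spread between cultures was small. Macrophage and digit tables were normalized separately, so levels are compared within each table only. Normalized TPM summed to 786283 to 820932 in M0, 1331226 to 1355441 in M1 and 892687 to 926275 in M2. The edgeR fold changes likewise use scaled libraries (TMM). CPM, the expected counts of a library scaled to a common total only, are therefore given beside some levels. The genes named above kept their highest state in CPM. The part of the scaling in the differences between states was not tested.

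**Figure D5:**
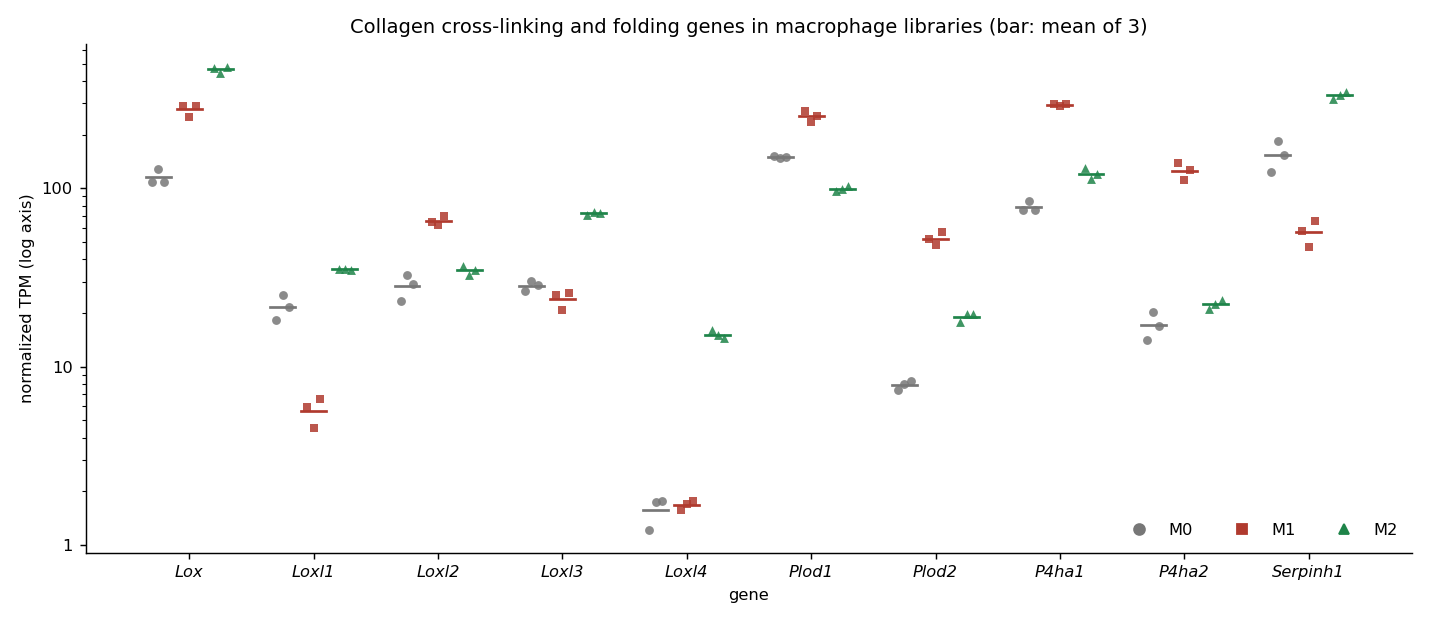
Level of each of the 10 genes (normalized TPM, log axis) in the 3 cultures each of M0, M1 and M2 macrophages; each point is 1 culture and each bar the mean of 3. P4ha2 lies between 112 and 138 in M1 and between 14.1 and 23.6 in M0 and M2, and Loxl4 lies between 14.4 and 16 in M2 and under 2 in M0 and M1.

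P4ha2 stood at 14.1, 20.2 and 17 normalized TPM in M0, at 138, 112 and 127 in M1 and at 21.1, 22.6 and 23.6 in M2. P4ha1 stood at 75.9, 84.7 and 75.7 in M0, at 298, 288 and 296 in M1 and at 130, 113 and 120 in M2. Plod2 stood at 7.43, 7.96 and 8.36 in M0, at 52, 47.8 and 56.7 in M1 and at 17.7, 19.7 and 19.8 in M2. For each of these genes the 3 states did not overlap, and M1 was highest. Against M0 the rise in M1 was 7.31-fold for P4ha2 (edgeR adjusted p = 8.89e-11), 6.66-fold for Plod2 (adjusted p = 1.59e-12) and 3.67-fold for P4ha1 (adjusted p = 1.53e-11). Against M2, the log2 difference of M1 was 2.44 for P4ha2, 1.41 for Plod2 and 1.23 for P4ha1, each called. Plod1 was at 152, 147 and 149 in M0, 270, 236 and 254 in M1 and 96.3, 98.8 and 103 in M2, also without overlap. In CPM Plod1 overlapped between M0, at 284.2 to 289.9, and M1, at 260.3 to 301, and ran from 164.8 to 181.4 in M2. Its difference of 1.33 between M1 and M2 was called, whereas that of 0.75 between M1 and M0 was under 2-fold (edgeR adjusted p = 6.49e-08).

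Genes of prolyl and lysyl hydroxylases are known to respond to low oxygen, and the hypoxia list moved in the same cultures. Of 11 hypoxia genes, 9 were called higher in M1 than in M0, with Slc2a1 at a log2 fold change of 4.12, Bnip3 at 3.90, Pgk1 at 3.28 and Ldha at 2.09. In M2 against M0, 3 were higher and 2 lower. The background was 46.1% of all genes in M1 against M0 and 22.3% in M2 against M0. The summed level of the list was 848 to 858 normalized TPM in M0, 4970 to 5540 in M1 and 1440 to 1500 in M2. Its part in the members' changes was not tested.

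The promoters of P4ha1, P4ha2 and Serpinh1 are shown because these windows hold the letters ACGTG, a form of the core of the hypoxia response element. The first 2 genes were highest and the last was lowest in M1, where the hypoxia genes were high. Each window runs 5′ to 3′ on the gene's strand, from 250 bases before to 50 bases after its start in RefSeq (GRCm38.p6). Capitals mark ACGTG, written CACGT where it lies on the opposite strand. The windows are chr10:59323046-59323345 (plus strand) for P4ha1, chr11:54100674-54100973 (plus strand) for P4ha2 and chr7:99353190-99353489 (minus strand) for Serpinh1.
P4ha1: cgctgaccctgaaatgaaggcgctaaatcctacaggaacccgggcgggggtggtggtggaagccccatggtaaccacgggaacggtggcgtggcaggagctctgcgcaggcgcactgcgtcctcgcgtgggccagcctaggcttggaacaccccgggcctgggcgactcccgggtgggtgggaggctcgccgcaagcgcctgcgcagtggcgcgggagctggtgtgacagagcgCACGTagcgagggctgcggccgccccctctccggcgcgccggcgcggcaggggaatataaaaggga
P4ha2: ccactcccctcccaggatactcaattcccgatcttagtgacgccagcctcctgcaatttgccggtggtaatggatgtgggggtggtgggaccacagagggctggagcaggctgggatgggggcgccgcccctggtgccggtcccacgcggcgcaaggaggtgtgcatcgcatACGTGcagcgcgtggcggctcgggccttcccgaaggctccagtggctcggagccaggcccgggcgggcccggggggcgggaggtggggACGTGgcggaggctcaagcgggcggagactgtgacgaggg
Serpinh1: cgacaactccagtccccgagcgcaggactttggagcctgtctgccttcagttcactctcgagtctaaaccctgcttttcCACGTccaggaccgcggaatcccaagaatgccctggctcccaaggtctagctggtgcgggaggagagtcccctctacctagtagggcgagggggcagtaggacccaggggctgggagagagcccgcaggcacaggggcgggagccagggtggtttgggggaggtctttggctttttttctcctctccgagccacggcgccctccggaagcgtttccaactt

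RefSeq windows were matched for 5 of the 10 genes. For P4ha1 and Serpinh1 the RefSeq start is the start of the gene's span given above. The window of P4ha2 lies wholly inside its span, which begins at 54100095. Its positions therefore count from a start further downstream, and the sequence around the start of the span was not searched. ACGTG was found 1 time for P4ha1, at position -16 on the opposite strand, 2 times for P4ha2, at -78 and 10 on the gene's strand, and 1 time for Serpinh1, at -171 on the opposite strand. None of the 4 lies in CACGTG, the E-box, which holds the same letters. The windows of Plod1 and Loxl4 held no ACGTG on either strand, and other forms of the core were not searched. Of all 32851 promoter windows of this length, 6447 (19.6%) held ACGTG on either strand. A match of letters is a description and not a site of binding, and Serpinh1, which holds one, was lower in M1 than in M0.

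Of the lysyl oxidases, Lox was high in all macrophages and higher in both treated states. It stood at 109, 128 and 108 in M0, at 288, 251 and 291 in M1 and at 475, 442 and 478 in M2, without overlap between states. In CPM Lox ran from 260.8 to 316.8 in M0, 354.5 to 412.7 in M1 and 1003 to 1078 in M2. These did not overlap either, but M0 and M1 lay nearer each other. The rise against M0 was 2.38-fold in M1 (log2 1.25, edgeR adjusted p = 1.29e-08) and 3.88-fold in M2 (log2 1.96, adjusted p = 1.2e-09), while the difference between M1 and M2 was under 2-fold, at -0.80 on the log2 scale. Loxl4 showed the largest factor between M0 and M2, with 1.22, 1.75 and 1.76 in M0, 1.57, 1.69 and 1.76 in M1 and 16, 15 and 14.4 in M2. The rise in M2 was 8.91-fold (edgeR adjusted p = 1.68e-09), and M0 and M1 overlapped. Loxl3 stood at 26.5, 30.1 and 28.8 in M0, 25.3, 20.7 and 26 in M1 and 70.6, 73.6 and 72.6 in M2, a log2 fold change of 1.34 in M2 (edgeR adjusted p = 3.4e-08) and of -0.10 in M1 (adjusted p = 0.318). In CPM Loxl3 and Loxl4 lay lower in M1 than in M0 without overlap. Loxl3 ran from 51.81 to 68.66 in M0 and from 29.14 to 35.75 in M1.

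Loxl1 and Loxl2 differed in direction in M1. Loxl1 stood at 18.3, 25.1 and 21.6 in M0, 5.91, 4.53 and 6.59 in M1 and 35.4, 35.4 and 34.8 in M2, a fall of 1.89 on the log2 scale in M1 (edgeR adjusted p = 8.08e-08). Loxl2 stood at 23.2, 32.8 and 29.1 in M0, 64.6, 62.4 and 69.6 in M1 and 36.6, 32.6 and 34.7 in M2. Its M1 cultures lay above all others and its M0 and M2 cultures overlapped. In CPM Loxl2 ran from 68.22 to 101.6 in M0 and from 101.7 to 112.6 in M1, which nearly met. The rise in M1 was 2.09-fold (edgeR adjusted p = 1.37e-06) and under 2-fold, at 0.93 on the log2 scale, without replicate 1 of M0.

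Serpinh1 followed Loxl1 in its order of states. It stood at 124, 184 and 153 in M0, at 57.8, 47 and 65.3 in M1 and at 317, 334 and 347 in M2, without overlap. It fell by 1.40 on the log2 scale in M1 (edgeR adjusted p = 1.32e-06) and rose by 1.05 in M2 (adjusted p = 8.29e-06), the latter under 2-fold, at 0.91, without replicate 1 of M0. Between M1 and M2 the log2 difference was -2.54 for Serpinh1, -2.61 for Loxl1, -3.25 for Loxl4 and -1.54 for Loxl3.

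In counts, 7 of the 10 genes were called between M1 and M0, with 5 higher and 2 lower, where the background was 46.1% of 12939 genes. Between M2 and M0, 5 were called, all higher, with a background of 22.3% of 12976 genes. Between M1 and M2, 8 were called, 4 higher and 4 lower in M1, with a background of 48% of 12934 genes. With such backgrounds the counts say little of the members as a set, and the first 2 comparisons share the M0 cultures. The median log2 fold change of the 10 genes was 0.91 in M1 and 0.84 in M2 against M0, and 0.00 between M1 and M2.

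Per length, Serpinh1, Plod1 and Lox were the most abundant members in M0, at means of 153.5 ± 30.2, 149.6 and 114.9 normalized TPM (SD shown for Serpinh1, n = 3), and Serpinh1 and Plod1 overlapped. In M1 the first places were held by P4ha1, Lox and Plod1, at means of 294, 276.5 and 253.3, which overlapped between neighbours. In M2 Lox at 464.6 lay above Serpinh1 at 332.6 without overlap. Lox held 57% to 61.1% of the lysyl oxidase sum in M0, 73.7% to 74.7% in M1 and 73.8% to 75.3% in M2. In the non-regenerative digits at 0 hours this share was 11.7% to 21.2%. By mean level Lox held place 9 of the 10 genes in those digits, and it overlapped with Loxl1 in place 8.

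The other genes of the machinery went mostly down in M1. Of 18 tested, 3 rose (P4hb, Plod3 and Colgalt2) and 10 fell against M0. The background there was 46.1% of 12939 genes, with 2602 higher and 3359 lower. Of 17 tested in M2, 5 rose (P3h2, P3h4, Fkbp10, Bmp1 and Adamts14) and none fell. With a background of 22.3% of all genes in M2, that count is near the background. Of 5 substrates tested, Col1a2 fell in M1, and edgeR called 0 in M2, where all 5 had an unadjusted p under 0.05, as did 76.6% of all genes. The enzymes' sum was 70.2% to 87.6% of the substrates' sum in M0, 236% to 249% in M1 and 93.4% to 102% in M2.

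The macrophage cultures also held RNA of genes that mark connective tissue. Col1a1 stood between 248 and 394 normalized TPM in M0, 145 and 176 in M1 and 431 and 476 in M2, Acta2 between 228 and 345, 6.14 and 8.33, and 223 and 272, and Pdgfra between 5.51 and 8.37, 1.22 and 1.98, and 13.2 and 15.8. The summed fibroblast markers came to 55.2 to 87.7 in M0, 51.3 to 63.9 in M1 and 101 to 124 in M2. The macrophage marker Adgre1 stood between 826 and 948, 1050 and 1210, and 573 and 626, whereas Lum was at most 1.61 in any culture. The sum of all 5 macrophage markers had another order than Adgre1. It came to 19000 to 21800 in M0, 8110 to 8700 in M1 and 8880 to 9330 in M2. Col1a1 and Pdgfra had the order M2, M0, M1 of Loxl1 and Serpinh1, whereas Acta2 overlapped between M0 and M2 and the fibroblast sums of M0 and M1 overlapped. The part of such RNA in the members' levels was not tested.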

How the data were processed

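Libraries of polyadenylated RNA from 41 digits and 9 macrophage cultures were used. The authors aligned the reads to mouse genes (mm10; CASAVA and RSEM 1.2.3 in the submitters' processing notes) and deposited the unnormalized expected count of RSEM for each gene. The second deposited value is a signal, named normalized TPM: the authors scaled TPM by the median-by-ratio method, for digits and macrophages apart. All tables hold the same 21954 genes, and 26 symbols that had been turned into dates were restored from the transcript lists. Groups, times and amputation levels come from the sample labels, which do not say whether replicates are separate animals or cultures, so p-values measure the spread between these samples.

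For the tests, expected counts were rounded to whole numbers. Pairs of groups were fitted alone in edgeR 4.0.16 under R 4.3.3 (filterByExpr, TMM, glmQLFit, glmQLFTest) over all genes. Calls needed a p under 0.05 after Benjamini-Hochberg adjustment and group means of normalized counts, each plus 1, that differed by over 2-fold. These are the thresholds of the study, whose own tool (EBSeq) was not at hand. Changes over time and their difference between groups were tested with F tests in edgeR, without the fold threshold. The 95% intervals use the t quantile at edgeR's degrees of freedom. The code was tested on simulated data. DESeq2 1.42.0, limma 3.58.1 on log2(normalized TPM + 1) of genes with a mean of at least 1, other filters and scalings, joint fits, the date period and left-out libraries were the alternatives. The fit of 39 digits and the test over time without 2 digits were chosen after seeing the data.

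The named genes are all 10 members, the 3 genes most like each by Spearman's rho over the 41 digits, and genes of lists of collagen machinery, substrates, hypoxia and cell type markers. The members and lists were chosen with earlier results of these data known. Gene positions are from GENCODE M21 (GRCm38) and promoters from RefSeq. Tables were handled in Python 3.11.15 with pandas 2.3.3, numpy 2.4.6 and matplotlib 3.10.9.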

Additional observations from a re-analysis of the deposited data

Results flagged for a closer look

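Among the 5 non-regenerative digits at 7 days, the highest digit stood far from the others for 2 of the 10 genes. Loxl3 was at 65.5 normalized TPM in replicate 4 and at 5.22 to 17.4 in the other 4 digits, a gap of 0.798 of the whole range. Loxl4 was at 9.56 in replicate 2, the digit with the fewest genes above 0, and at 0 to 2.1 in the other 4, a gap of 0.78 of the range. Chance gives such a gap in about 1 of 20 groups where values are normally distributed. That was not tested for these levels, which were not put on a log scale, and 10 genes were looked at.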

How the results depend on the processing

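No fold change of a called member turned its direction under any alternative tried. Of 121 recomputed fold changes in digits, 79 kept their call and 42 lost it, and in macrophages 257 of 260 kept it. With 3 digits a group and a wide spread at 7 and 14 days, single digits decide many digit calls, and the cause was not tested.

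Compared with 1 member called at 12 hours in the non-regenerative digits, DESeq2 called 2, while 1 fit of all digits called 0, also with the date period. At 24 hours, where 1 was called, limma, the fit of all digits, that fit with the period and the fit of 39 digits called 0. At 3 days (0 called) DESeq2 gave 3, no filter 1 and the 39 digits 1. At 7 days (0 called) DESeq2 gave 2, all digits 3, the period 2 and the 39 digits 5, and at 14 days (0 called) they gave 4, 5, 5 and 4. With all digits, the period and the 39 digits, the share of all genes called was 1.09%, 1.15% and 1.8% at 7 days. It was 4.87%, 5.59% and 1.72% at 14 days, and with the 39 digits it was 0.624% at 3 days. At 21 days (2 called) limma gave 1, all digits 0, the period 1 and the 39 digits 0. The share of all genes with the period was 0.38% there. In intermediate digits at 14 days (3 called) DESeq2 gave 6, no filter 5 and all digits 1, the last with 0.373% of all genes. At 21 days (2 called) DESeq2 gave 4, limma 1, all digits 0 and the period 0. The shares of all genes called with DESeq2, limma or no filter are not given here. The backgrounds of the main tests do not stand for them. For M2 against M0 (5 called), 9 were past the threshold with no fold threshold. The test of any change over time (8 past the threshold) gave 6 with limma, 9 without 2 digits, 6 to 8 with 1 digit left out, and 8 with DESeq2, its size factors, no filter or the date period.

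Leaving out 1 library at a time, the non-regenerative counts ran from 1 to 2 at 12 hours, 0 to 1 at 24 hours, 0 to 2 at 3 days (Plod2 without replicate 1 at 0 hours), 0 to 1 at 7 days, 0 to 5 at 14 days and 0 to 2 at 21 days. The intermediate counts ran from 0 to 4 at 14 days and 0 to 5 at 21 days. Those of macrophages ran from 6 to 7 for M1 against M0, 4 to 5 for M2 against M0 and stayed at 8 for M1 against M2. All comparisons of intermediate with non-regenerative digits stayed at 0. The shares of all genes called in these fits are not given here.

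The macrophage labels share replicate numbers, but libraries of different states with the same number did not deviate together (r from -0.075 to 0.066, beside -0.056 to 0.113 for different numbers). With the number as a replicate block, 7, 5 and 8 members were called for M1 against M0, M2 against M0 and M1 against M2, the same counts as without the block.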
